A study of Homo sapiens with 6 samples.

Results

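The genes described here are 7 receptors that steer T cells between thymus, blood and lymphoid tissue, together with KLF2, a transcription factor that controls several of them. The receptors are CXCR4, CCR4, CCR7, CCR9, CXCR3, S1PR1 and GPR183. Members were found by matching the RefSeq accession of each array probe to these symbols, which were chosen with earlier results of these data known, and this gave 8 of the 19722 genes named on the arrays. Expression was measured in RPMI-8402, a human cell line established from T-cell acute lymphoblastic leukaemia, with 1-colour Agilent arrays. The 3 groups, each with 2 arrays, were cells given lentivirus with a control short hairpin RNA (control), with a hairpin against GATA3 (shGATA3) or with a hairpin against TCF7, which encodes TCF1 (shTCF1). Per the labels, cells of every group were transduced with lentivirus and sorted as EGFP+ 48 h later, and they came from 1 leukaemia line with no unsorted or untransduced sample beside them. The study's methods list 1 hairpin vector against GATA3, so an effect of that hairpin on other transcripts was not tested, and the vector against TCF7 is not given in the sources used here. The study describes the replicates as separate experiments, and the p values cover the spread between these 6 samples.

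Chemokine receptors and S1PR1 couple to inhibitory G proteins and make a cell move up a gradient of their ligand. CXCR4 holds thymocytes and stem cells near CXCL12, CCR9 follows CCL25 in thymus and gut, CCR7 follows CCL19 and CCL21 to lymph nodes, and S1PR1 follows sphingosine 1-phosphate out of the thymus and lymph nodes into the blood. KLF2 is a zinc finger factor of resting lymphocytes that is known to activate S1PR1, and FOXO1 is known to activate KLF2 in mature T cells. GPR183 (EBI2) is a receptor for oxysterols that positions lymphocytes within lymphoid tissue.

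KLF2 and S1PR1 carried the largest called differences among the members, and CCR9 a smaller one. Their promoters are shown because the hairpins target factors that bind DNA and KLF2 acts on S1PR1. Each line gives the 250 bases before the RefSeq transcription start, 5′ to 3′ on the strand of the gene, from the assembly GRCh38.p14. Capitals mark CACCC on either strand, the core of sites that KLF factors bind. KLF2 lies at chr19:16324576-16324825 on the plus strand, S1PR1 at chr1:101236769-101237018 on the plus strand and CCR9 at chr3:45886293-45886542 on the plus strand.
KLF2: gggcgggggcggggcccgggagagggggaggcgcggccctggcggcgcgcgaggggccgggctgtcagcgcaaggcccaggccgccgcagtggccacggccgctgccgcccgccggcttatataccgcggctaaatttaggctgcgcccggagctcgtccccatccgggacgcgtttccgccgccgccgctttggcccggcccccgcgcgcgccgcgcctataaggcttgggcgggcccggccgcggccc
S1PR1: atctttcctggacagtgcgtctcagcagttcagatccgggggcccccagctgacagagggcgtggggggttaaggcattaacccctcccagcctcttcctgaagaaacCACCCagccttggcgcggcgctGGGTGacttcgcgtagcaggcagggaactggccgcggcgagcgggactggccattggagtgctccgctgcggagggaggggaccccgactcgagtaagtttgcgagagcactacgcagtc
CCR9: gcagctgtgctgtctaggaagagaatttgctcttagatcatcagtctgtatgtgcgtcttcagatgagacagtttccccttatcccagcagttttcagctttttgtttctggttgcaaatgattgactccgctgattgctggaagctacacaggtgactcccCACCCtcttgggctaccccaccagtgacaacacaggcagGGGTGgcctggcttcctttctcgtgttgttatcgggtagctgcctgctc

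Promoters were found for 7 of the 8 members, all but CCR7. They were searched on both strands for a GATA motif (AGATAA or AGATAG or TGATAA or TGATAG), a TCF motif (CTTTGAT or CTTTGTT or CTTTGAA) and CACCC, where a TCF match ending in TGAT can share those letters with a GATA match. The KLF2 window held none of the 3 motifs and had a GC content of 80.0%. The S1PR1 window held 2 CACCC matches, at 142 to 138 bases before the start on the plus strand and at 120 to 116 bases on the minus strand, and the CCR9 window also held 2. Over the members with a promoter, 6 of 7 held CACCC, 1 of 7 held a GATA motif (CCR4) and 0 of 7 held a TCF motif. Among 35116 RefSeq promoters of this length 54.7% held CACCC, 22.3% a GATA motif and 10.0% a TCF motif. A match is a description of letters and shows no binding.

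The targeted genes were examined first. GATA3 lay at normalized log2 intensities of 9.54 and 9.56 on the control arrays and 9.46 and 9.55 on those labelled shGATA3. The groups overlapped, and limma gave a difference of -0.05 (SE 0.10, adjusted p 0.795). The label is therefore not borne out by the GATA3 probe, and shGATA3 stands in the comparisons for the label of these arrays, not for a measured loss of GATA3. GATA3 was read by 1 probe printed as 1 spot. The study reports a knockdown by its GATA3 hairpin in thymocytes, which are other cells than those on these arrays. TCF7 was lower on the arrays labelled shTCF1, at 12.58 and 12.68 against 13.96 and 13.91 on the control arrays (difference -1.31, SE 0.098, adjusted p 0.00393 in limma). Each array had 51.1% to 56.2% of its 57176 probes well above background and 0 saturated spots. All 13 T-lineage markers examined were tested, 11 of them well above background on all 6 arrays and CD1A and RAG1 well above background on 2 arrays each. CD2, a T-cell adhesion molecule, differed most among them, by -2.19 on the arrays labelled shTCF1 (adjusted p 0.00199). Among markers of other cells HBB, CD22 and TEK were well above background on 0 arrays. Of the 4 tested endothelial markers, listed because endothelium also uses KLF2 and S1PR1, only PECAM1 was called against control. PECAM1 was 0.56 higher on the arrays labelled shTCF1 (adjusted p 0.0177 in limma), the group in which KLF2 and S1PR1 were lowest. CDH5 was at 7.46, 7.54 and 7.60 on the control arrays and on those labelled shGATA3 and shTCF1. The samples were sorted cells of 1 leukaemia line, and the part of these markers in the results was not tested. In a bulk sample fewer cells that express a gene and less RNA per cell cannot be told apart.

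Of the 8 members 7 were tested, which required a probe well above background on each array of 1 group or more, and CCR4 had none. Against control, 1 of the 7 was called by limma (adjusted p below 0.05) on the arrays labelled shGATA3, 1 higher and 0 lower, where 6.93% of the 14491 tested genes were called, 2.79% higher and 4.14% lower. On the arrays labelled shTCF1 it called 3 of 7, 1 higher and 2 lower, where 16.2% of genes were called, 6.26% higher and 9.99% lower. In the direct comparison of the hairpin groups 2 of 7 were called, both higher on the arrays labelled shGATA3, where 6.58% of genes were called, 3.75% higher and 2.83% lower. The groups did not overlap for 4, 5 and 5 of the 7 members in these comparisons, and for 63.0%, 69.2% and 53.4% of all tested genes. The median difference of the 7 members was 0.04, -0.13 and 0.10 on the log2 scale, against -0.03, -0.05 and 0.00 over all tested genes, and their median absolute difference was 0.43, 0.44 and 0.45 against 0.19, 0.23 and 0.17. With so few members these shares are descriptions. The 2 comparisons with control share the same 2 control arrays.

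**Figure D1:**
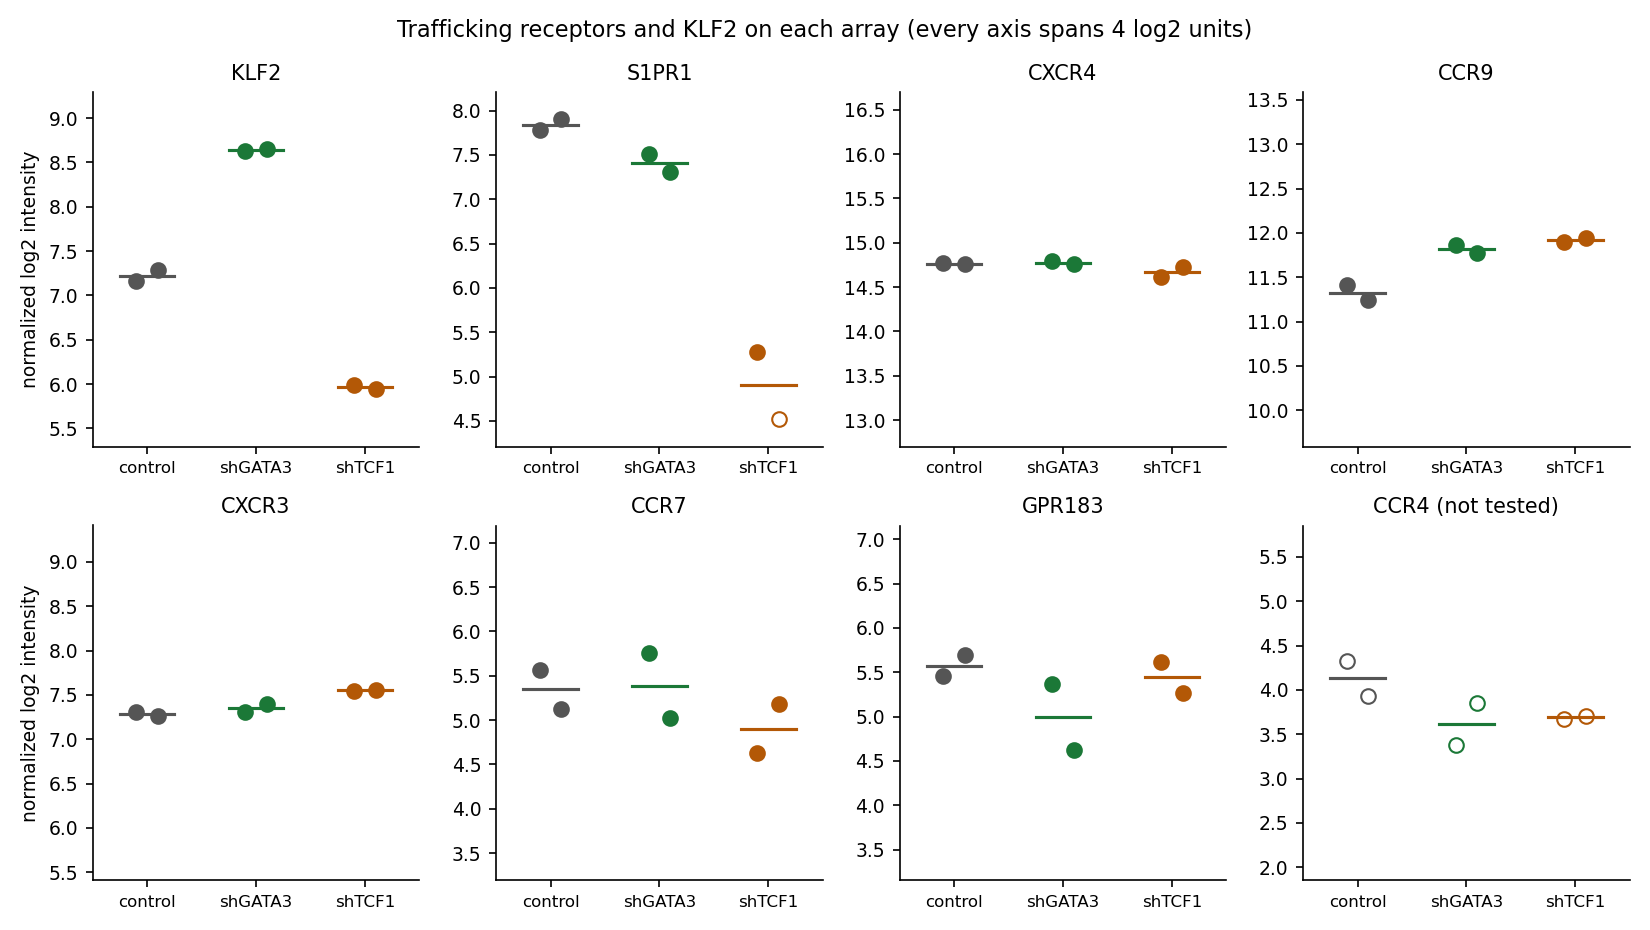
Normalized log2 intensity (vertical axis, 4 log2 units in every panel) of each member on the 2 arrays of each group (control, and the arrays labelled shGATA3 and shTCF1), with 1 point per array, a line at the group mean and open points where the probe was not well above background. KLF2 sat at 7.16 and 7.29 in control, above 8.6 on the arrays labelled shGATA3 and below 6.0 on those labelled shTCF1, while the CXCR4 points spanned 0.18.

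KLF2 moved in opposite directions in the 2 hairpin groups. Its probe (A_23_P119196, RefSeq NM_016270) was well above background on all 6 arrays. The normalized log2 intensity was 7.16 and 7.29 on the control arrays, 8.63 and 8.65 on the shGATA3-labelled arrays and 5.99 and 5.94 on those labelled shTCF1. The 3 groups were fully separate, with control in the middle. Against control KLF2 rose 2.65-fold on the arrays labelled shGATA3 (log2 difference 1.41, SE 0.10, 95% interval 1.16 to 1.66, adjusted p 0.00312 in limma). It fell 2.41-fold on the arrays labelled shTCF1 (log2 difference -1.27, SE 0.10, 95% interval -1.52 to -1.02, adjusted p 0.00423). Directly between the hairpin groups the difference was 2.68 (SE 0.10), a 6.39-fold difference with an adjusted p of 0.000491. By p value the KLF2 probe ranked 13 of 31134 in that comparison, 89 in shGATA3 against control and 119 in shTCF1 against control. The normexp background correction gave a smaller fall on the arrays labelled shTCF1, -0.73, which was still called. With the deposited matrix in place of the scanner files the differences were 1.52 and -1.12 and neither was called (adjusted p 0.568 and 0.541). Without the control replicate 2 column of that matrix, which followed no array, they were 1.28 and -1.36 (adjusted p 0.0911 and 0.0971).

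The KLF2 probe was printed as 5 spots on each array, which gives a view of the measurement within an array. Before normalization the 5 spots ranged from 159 to 195 and from 192 to 226 intensity units on the control arrays. They ranged from 330 to 343 and from 329 to 378 on the arrays labelled shGATA3, and from 47.4 to 60.2 and from 35.2 to 54.4 on those labelled shTCF1. No spot of one group reached the range of another. The order of the groups was therefore present in the unscaled signal, although the control arrays were brighter overall (75th percentile of intensity 269.6 and 287.4, against 165.3 to 178.8 on the other 4 arrays). Spots of 1 array share its RNA and are no replicates of a group. All 6 arrays lay on 1 slide and in 1 scan. The file headers give the position of each array on the slide as 2 numbers, without saying which is the row or the column. Both control arrays differed from the 4 hairpin arrays in the first number, so that slide position and the control group cannot be told apart. The 4 hairpin arrays shared their first number. Their second number was 1 and 2 for shTCF1 and 3 and 4 for shGATA3, so slide position and hairpin group cannot be told apart either.

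**Figure D2:**
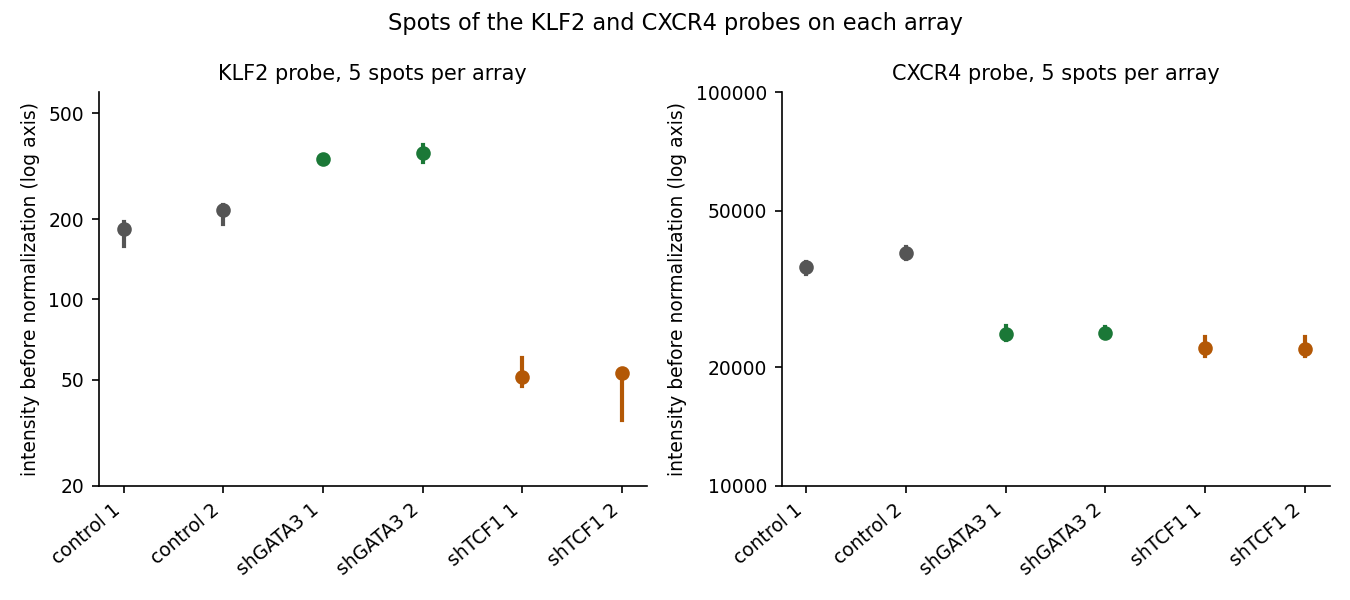
Intensity before normalization (log axis, arbitrary scanner units) of the 5 spots of the KLF2 probe (left) and the CXCR4 probe (right) on each of the 6 arrays, with a point at the median and a bar from the lowest to the highest spot. The KLF2 bars of the 3 groups do not meet, and the CXCR4 bars are highest on the 2 control arrays, which were brighter overall.

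S1PR1, the receptor for egress into blood and lymph, was low on the arrays labelled shTCF1. Its probe (A_23_P404481, RefSeq NM_001400) gave 7.78 and 7.90 on the control arrays, 7.51 and 7.31 on the shGATA3-labelled arrays and 5.28 and 4.52 on those labelled shTCF1. Only on shTCF1 replicate 2 was it not well above background, and both shTCF1 arrays lay below the other 4. S1PR1 fell 7.68-fold against control on the arrays labelled shTCF1 (log2 difference -2.94, SE 0.25, 95% interval -3.54 to -2.34, adjusted p 0.00453 in limma). It was 5.70-fold lower there than on the arrays labelled shGATA3 (log2 difference of shGATA3 minus shTCF1 2.51, SE 0.25, adjusted p 0.00525). The size of the fall is uncertain because the signal on the arrays labelled shTCF1 lay near background, with unscaled intensities of 31.0 and 15.7 against 275 and 327 in control. The normexp correction, which adds an offset, gave -1.67 against control and 1.40 between the hairpin groups, both still called. With the deposited matrix the 2 differences were -2.67 (adjusted p 0.541) and 2.87 (adjusted p 0.386).

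On the arrays labelled shGATA3, where KLF2 rose, S1PR1 was not higher. It was lower on both than on either control array. The log2 difference was -0.43 (SE 0.25), which was not called (adjusted p 0.320 in limma). The 95% interval ran from -1.03 to 0.18 and so did not include a rise of the size measured for KLF2 on the same arrays. KLF2 and S1PR1 were thus both lower on the arrays labelled shTCF1, and only KLF2 was called on those labelled shGATA3, where the difference between the 2 genes was not tested.

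**Figure D3:**
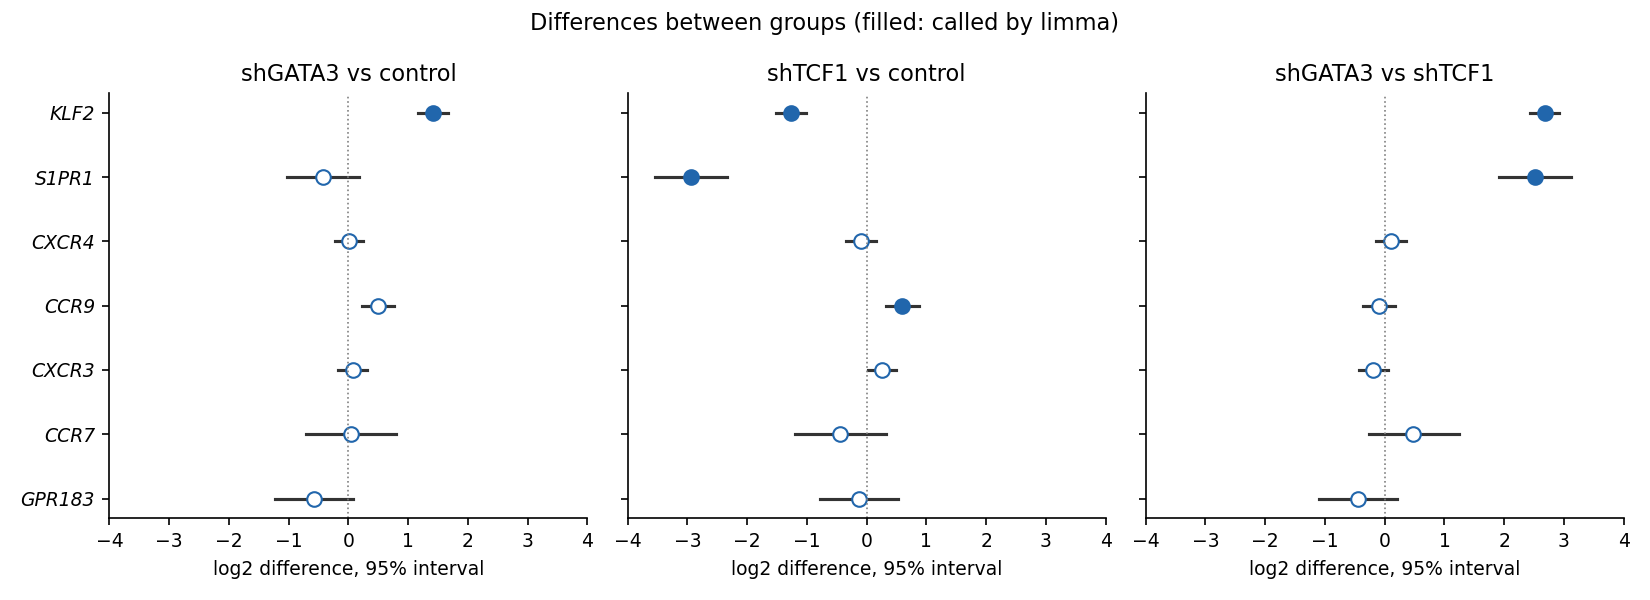
Log2 difference (horizontal axis) of the 7 tested members in each of the 3 comparisons, with the 95% interval from limma as a bar and filled points where the adjusted p was below 0.05. KLF2 lies at 1.41, -1.27 and 2.68, and S1PR1 at -0.43, -2.94 and 2.51, while the intervals of CXCR4, CCR7 and GPR183 cross 0 in every panel.

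CCR9, the receptor for the thymic and gut chemokine CCL25, lay above control in both hairpin groups and was called on the arrays labelled shTCF1. Its probe (A_33_P3395595) gave 11.41 and 11.24 on the control arrays, 11.87 and 11.77 on the shGATA3-labelled arrays and 11.90 and 11.94 on those labelled shTCF1. All 4 hairpin arrays lay above both control arrays. On the arrays labelled shTCF1 the rise of 0.60 (SE 0.11, 1.52-fold, 95% interval 0.33 to 0.87) was called with an adjusted p of 0.0215 in limma. On the arrays labelled shGATA3 the difference of 0.50 (SE 0.11, 1.42-fold) narrowly missed the threshold, with an adjusted p of 0.053. It passed with 75th percentile scaling (adjusted p 0.0427), normexp (0.00631), an intensity trend (0.00917) or only probes well above background on all arrays (0.0345). These were 4 of 17 alternatives, and the rest left it uncalled, among them all 6 fits that left out 1 array. The hairpin groups differed by -0.10 (adjusted p 0.641, 95% interval -0.37 to 0.17). The rise on the arrays labelled shTCF1 lost its call without control replicate 1 (0.68, adjusted p 0.0756), control replicate 2 (0.52, 0.113), shTCF1 replicate 1 (0.62, 0.0725) or shTCF1 replicate 2 (0.58, 0.0775). It was also lost without a filter on dim probes (0.60, adjusted p 0.0514), with the deposited matrix (1.14, 0.541) and with that matrix short of its control replicate 2 column (0.55, 0.172), so that 7 of 17 alternatives lost it. Before normalization the CCR9 intensities were 3460 and 3370 in control, 3230 and 3100 on the shGATA3-labelled arrays and 3390 and 3230 on those labelled shTCF1. They were thus nearly level, and the difference appears relative to the brighter control arrays.

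CXCR4, the receptor for CXCL12, was called in no comparison. Its probe (A_23_P102000, 5 spots) gave 14.77 and 14.76 in control, 14.79 and 14.76 on the shGATA3-labelled arrays and 14.61 and 14.73 on those labelled shTCF1. The difference from control was 0.01 (SE 0.099, 95% interval -0.23 to 0.25, adjusted p 0.956) and -0.09 (95% interval -0.34 to 0.15, adjusted p 0.534) in the 2 groups. These intervals leave room for changes of up to 0.25 upward and 0.34 downward. Under quantile normalization and normexp the first difference was -0.10 and -0.13, so CXCR4 had no stable direction there. Before normalization the 5 spots of CXCR4 spanned 34400 to 40400 on the control arrays, 23400 to 25400 on the shGATA3-labelled arrays and 21300 to 23800 on those labelled shTCF1.

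CXCR3, the receptor for the interferon-induced chemokines CXCL9, CXCL10 and CXCL11, gave 7.31 and 7.26 in control, 7.31 and 7.40 on the shGATA3-labelled arrays and 7.54 and 7.56 on those labelled shTCF1 (A_33_P3389230). Both shTCF1 arrays lay above the other 4, by a difference from control of 0.26 (SE 0.098, 95% interval 0.02 to 0.50) that was not called after adjustment (adjusted p 0.117). A second CXCR3 probe (A_23_P114299) was well above background on 1 array and was not tested. CCR7, the lymph node homing receptor, was dim, at 5.57 and 5.13 in control, 5.76 and 5.02 on the shGATA3-labelled arrays and 4.63 and 5.18 on those labelled shTCF1. The groups overlapped, with differences of 0.04 (adjusted p 0.946, 95% interval -0.71 to 0.80) and -0.44 (adjusted p 0.353, 95% interval -1.20 to 0.32). The first of these turned to -0.18 without control replicate 2 and to -0.32 without shGATA3 replicate 1. GPR183, the oxysterol receptor, gave 5.46 and 5.69 in control, 5.37 and 4.62 on the shGATA3-labelled arrays and 5.62 and 5.27 on those labelled shTCF1. It was lower on each shGATA3-labelled array than on either control array, yet neither difference from control was called (-0.58, adjusted p 0.229, and -0.13, adjusted p 0.755). The first difference rested on the dimmer array, at -0.95 without shGATA3 replicate 1 (adjusted p 0.0801) and -0.21 without shGATA3 replicate 2 (adjusted p 0.609). CCR4, a receptor of helper T cells that follows CCL17 and CCL22, was well above background on 0 of 6 arrays, with values from 3.38 to 4.33 that carry no comparison.

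Among the 6 arrays the genes whose profile was most like that of KLF2 were CXXC4 (r = 0.998), BBS4 (0.997), VIPR2 (0.997), CHST12 (0.996) and PLK2 (0.996). They were picked from 1773 tested genes whose values spanned at least 1 log2 unit, and r is a description over 6 arrays in 3 groups. VIPR2, a receptor for vasoactive intestinal peptide that is also coupled to G proteins, gave 9.05 and 8.93 in control, 10.27 and 10.26 on the shGATA3-labelled arrays and 7.98 and 7.95 on those labelled shTCF1. The profiles most like that of S1PR1 were ZNF699 (0.999), UBL3 (0.993), PROX1 (0.989), PADI2 (0.988) and ASAP1-IT1 (0.987). PADI2 gave 5.78 and 5.36 in control, 5.40 and 5.29 on the shGATA3-labelled arrays and 3.54 and 3.03 on those labelled shTCF1. On the latter arrays PADI2, ZNF699 (3.74 and 3.45) and PROX1 (3.04 and 2.98) were dim. They lay within or below the 3.38 to 4.33 of the CCR4 probe, which was well above background on 0 arrays. UBL3 and ASAP1-IT1 lay higher. No gene stood on both lists of 5.

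The other genes of these pathways were taken from lists of 91 genes, of which 90 had a probe and 68 were tested. Of the 68, limma called 15 on the arrays labelled shGATA3 against control (6 higher, 9 lower), 17 on those labelled shTCF1 (6 higher, 11 lower) and 11 between the hairpin groups (6 with shGATA3 higher and 5 with shGATA3 lower). The shares over all tested genes were 6.93%, 16.2% and 6.58%. These shares are also the background for the counts per list below, which follow the same order of comparisons. With so few genes in a list, those counts are descriptions. The median log2 difference of the 68 genes was -0.01, 0.03 and -0.04. Each array was left out in turn. In each comparison 2 of these 6 fits dropped an array of the group not compared. They gave the values of a fit to the 4 compared arrays alone. A call in 2 of 6 such fits can therefore mean none with a compared array dropped. The counts of called genes moved with single arrays. For shGATA3 they fell to 2 when either control array or shGATA3 replicate 2 was left out and to 4 when shGATA3 replicate 1 was. For shTCF1 they fell to 0 on dropping control replicate 1 (18 of 68 at an unadjusted p below 0.05 in limma), to 4 on dropping the other control array, and to 6 and 5 on dropping shTCF1 replicate 1 or 2. Only CCRL2 of the 15, 0 of the 17 and 5 of the 11 genes (CXCR5, CCRL2, SPNS2, FOXO1 and ELMO1) were called in all 6 fits that left out 1 array.

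**Figure D4:**
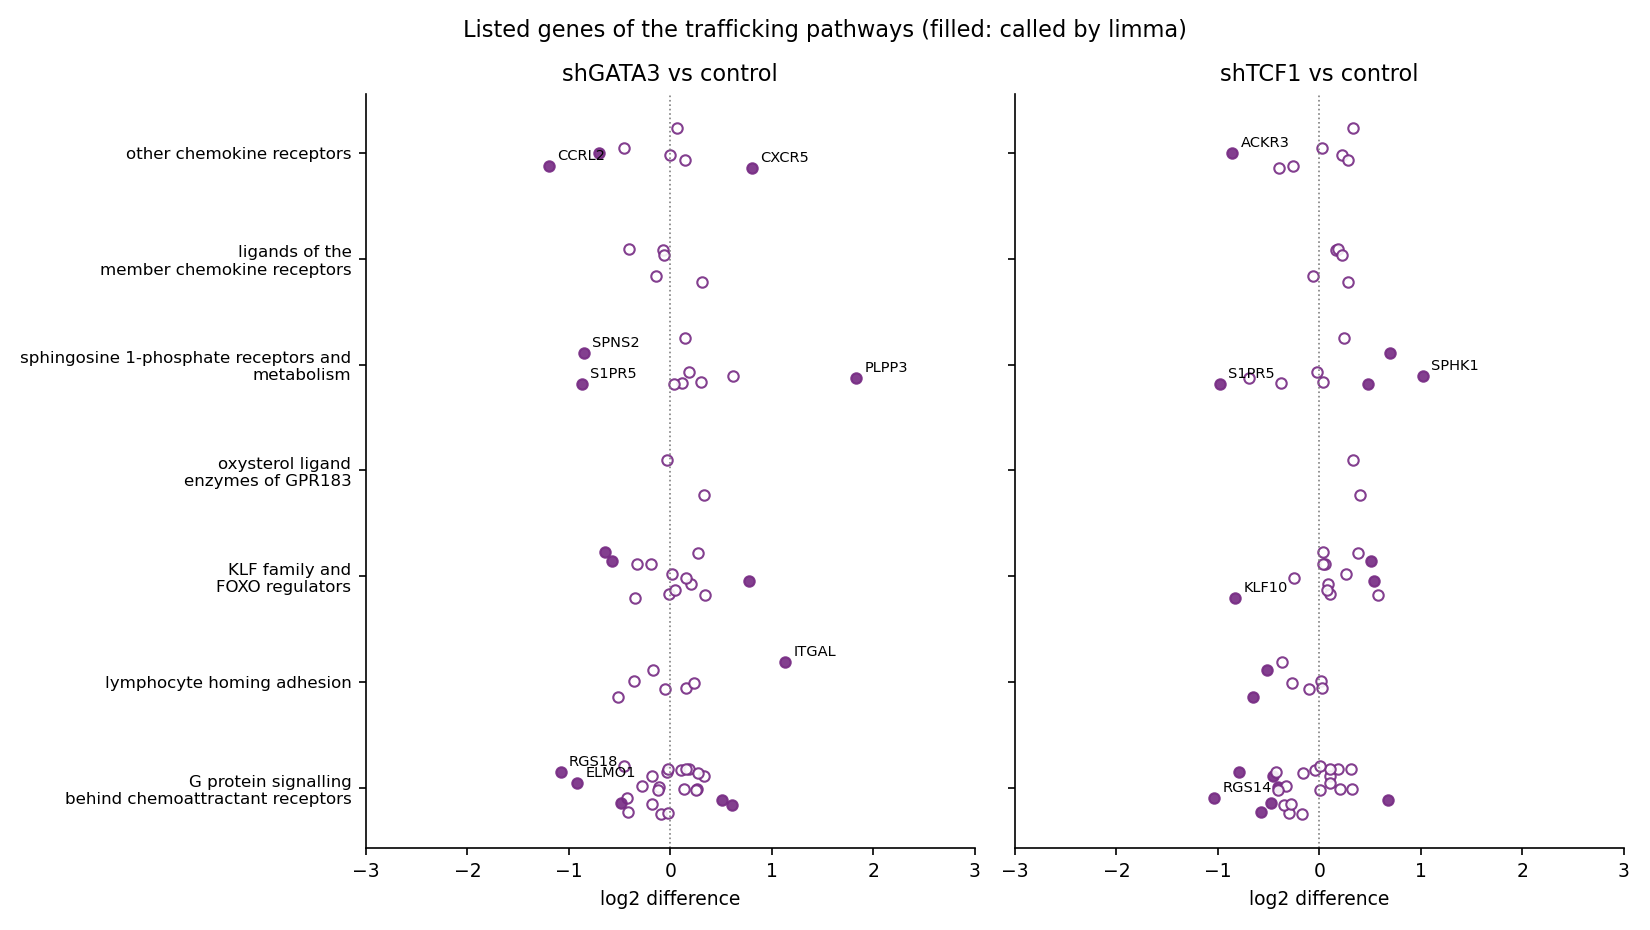
Log2 difference from control (horizontal axis) of each of the 68 tested pathway genes, 1 point per gene in a row for its list, for the arrays labelled shGATA3 (left) and shTCF1 (right), with filled points where limma called the gene. Called genes lie on both sides of 0, and the PLPP3 point on the left is a fitted value for a gene that was dim in control.

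Around S1PR1, 9 of 12 listed genes of sphingosine 1-phosphate signalling were tested and 3 were called on the arrays labelled shGATA3, 4 on those labelled shTCF1 and 2 between them. SPNS2, which exports sphingosine 1-phosphate, ran against KLF2. It was at 8.68 and 8.53 in control, 7.80 and 7.71 on the arrays labelled shGATA3 (difference -0.85, adjusted p 0.0163) and 9.22 and 9.38 on those labelled shTCF1 (0.70, adjusted p 0.0167). The direct difference of -1.55 (adjusted p 0.00234) was called in all 6 fits that left out 1 array. SPHK1, a kinase that makes the lipid, was 1.02 higher on the arrays labelled shTCF1 (adjusted p 0.0107), at 11.62 and 11.75 against 10.66 and 10.66 in control. Of the other receptors of the lipid, S1PR5, known from natural killer cell egress, was lower in both hairpin groups (-0.87, adjusted p 0.0197, and -0.98, adjusted p 0.00984). S1PR4, a receptor of lymphoid cells, was 0.48 higher on the arrays labelled shTCF1 (adjusted p 0.0278), so the receptors of this lipid did not move together. PLPP3, a phosphatase that degrades it, gave 4.55 and 4.09 in control, 6.10 and 6.21 on the shGATA3-labelled arrays and 3.09 and 4.17 on those labelled shTCF1. It was well above background only on the arrays labelled shGATA3 and was tested only through them, so its calls are no independent support. It was at least 3.56-fold higher there than in control (adjusted p 0.0395, called in 2 of 6 fits that left out 1 array and under 1 of 3 other scalings) and at least 3.82-fold higher than on those labelled shTCF1 (adjusted p 0.0157, called in 4 of 6), bounds taken against the dimmest signal well above background on each dim array or the signal of the probe itself where that was higher. CD69, which draws S1PR1 off the cell surface, was not tested because its probe was dim.

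In the KLF family and its FOXO regulators 13 of 14 genes were tested, and 3, 3 and 2 were called. FOXO1 ran opposite to KLF2, at 7.74 and 7.78 in control, 7.16 and 7.20 on the shGATA3-labelled arrays and 8.20 and 8.35 on those labelled shTCF1. Its differences were -0.58 (adjusted p 0.0334), 0.51 (adjusted p 0.0274) and, between the hairpin groups, -1.09 (adjusted p 0.00476), of which the last was called in all 6 fits that left out 1 array. KLF6, a widely expressed relative of KLF2, was higher in both hairpin groups (0.77, adjusted p 0.0171, and 0.54, adjusted p 0.0250). KLF11, a repressor of the same family, fell by 0.64 on the arrays labelled shGATA3 (adjusted p 0.0428), and KLF10 fell by 0.83 on those labelled shTCF1 (adjusted p 0.0491), each called in 0 of 6 fits that left out 1 array. Between the hairpin groups KLF11 was lower on the arrays labelled shGATA3 (-0.68, adjusted p 0.0374, also called in 0 of 6). KLF2, SPNS2 and FOXO1 were thus each called in opposite directions in the 2 hairpin groups against the same control arrays, KLF2 in the reverse sense to the other 2. The KLF2 calls held when any 1 array was left out, while most of those of FOXO1 and SPNS2 against control did not. FOXO1 was called against control in 2 of 6 such fits for shGATA3 and 2 of 6 for shTCF1. SPNS2 was called against control in 2 of 6 for shGATA3 and 3 of 6 for shTCF1. The share of all genes called in opposite directions was not counted.

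Of the other chemokine receptors 7 of 18 were tested, and 3, 1 and 2 were called. CCRL2, an atypical receptor that binds chemerin, fell by 1.20 on the arrays labelled shGATA3 (adjusted p 0.00475), from 9.33 and 9.28 to 8.04 and 8.17, and its second probe fell by 1.27 (adjusted p 0.0234). This call held in all 6 fits that left out 1 array, and CCRL2 was also lower there than on the arrays labelled shTCF1 (-0.94, adjusted p 0.00685). ACKR3, an atypical receptor that takes up CXCL12, fell by 0.70 on the arrays labelled shGATA3 (adjusted p 0.0336) and by 0.86 on those labelled shTCF1 (adjusted p 0.0126), where CXCR4, which binds the same ligand, differed by 0.01 and -0.09. On the arrays labelled shGATA3 CXCR5, the receptor for CXCL13, rose by 0.80 (adjusted p 0.0219), and it was at least 2.30-fold higher than on those labelled shTCF1, where it was not well above background. Of the ligands of the member receptors 5 of 9 were tested and 0 were called in any comparison, and of the enzymes that make oxysterol ligands of GPR183 2 of 5 were tested and 0 called.

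Among 7 adhesion genes of lymphocyte homing, all tested, 1, 2 and 1 were called. ITGAL, the alpha chain of the integrin LFA-1, rose by 1.13 on the arrays labelled shGATA3 (adjusted p 0.0272), at 7.40 and 7.43 against 6.12 and 6.45 in control, and it was also called higher there than on those labelled shTCF1 (adjusted p 0.0111). ITGB2, the beta chain that pairs with it, and SELPLG, a ligand of selectins, fell by 0.65 and 0.52 on the arrays labelled shTCF1 (adjusted p 0.0346 and 0.0342). Behind the receptors, 25 of 26 genes of G protein signalling were tested, and 5, 7 and 4 were called. RGS18, which shortens G protein signals, fell by 1.08 on the arrays labelled shGATA3 (adjusted p 0.00851) and by 0.79 on those labelled shTCF1 (adjusted p 0.0122). ELMO1, which works with DOCK2 to activate RAC in migrating lymphocytes, fell by 0.92 on the arrays labelled shGATA3 (adjusted p 0.0111), and RGS14, of the same family as RGS18, fell by 1.04 on those labelled shTCF1 (adjusted p 0.0107). GRK2, a kinase that desensitises receptors, was higher in both groups (0.51, adjusted p 0.0472, and 0.68, adjusted p 0.0147). RGS10, also of the RGS family, rose by 0.61 on the arrays labelled shGATA3 (adjusted p 0.0397), and ARRB1, an arrestin that uncouples receptors from G proteins, fell by 0.57 on those labelled shTCF1 (adjusted p 0.0371). Between the hairpin groups ELMO1 was lower (-1.03) and RGS10 (0.96), GRK5 (0.79) and CORO1A (0.66), which binds actin, were higher on the arrays labelled shGATA3. In fits that left out 1 array, this CORO1A call held in 0 of 6. Against control, GRK2 for shGATA3 and ARRB1 for shTCF1 were also called in 0 of 6. ITGAL and RGS10 for shGATA3 and ITGB2 and SELPLG for shTCF1 were called against control in 2 of 6. The calls against control of RGS18, ELMO1, RGS14 and, for shTCF1, GRK2 held in 3 to 5 of 6. A called probe beside a brighter one that was not called was seen for RAC2 (-0.68 and -0.69 in the 2 hairpin groups), DOCK2 (-0.51 on the arrays labelled shTCF1), DOCK8 (-0.61 there) and ITGA4 (0.65 between the hairpin groups).

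**Figure D5:**
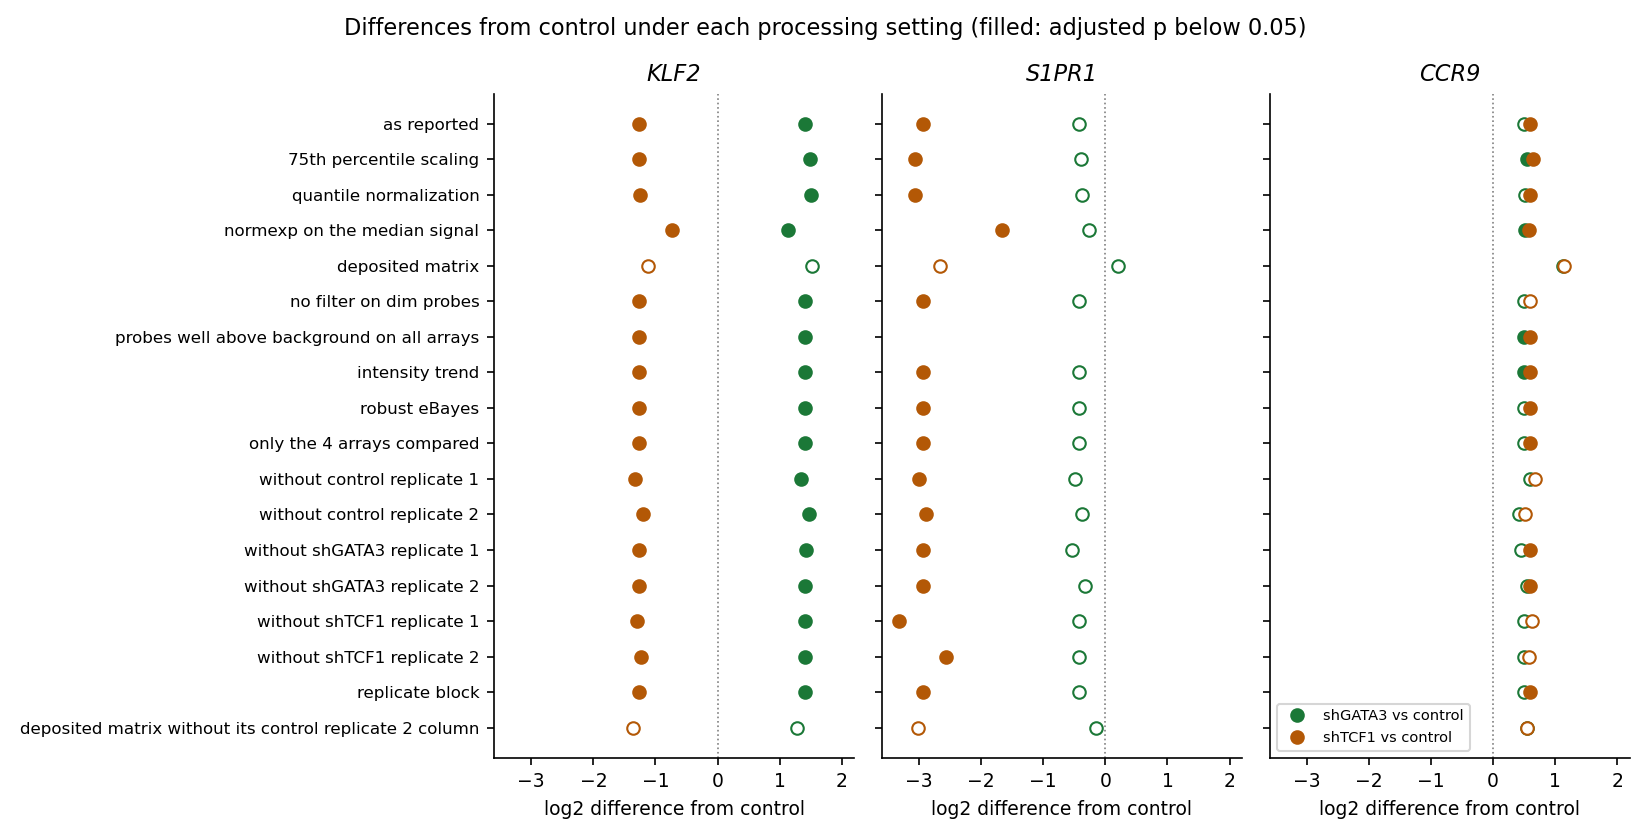
Log2 difference from control (horizontal axis) of KLF2, S1PR1 and CCR9 under each processing setting (rows), for shGATA3 and shTCF1 in separate colours, with filled points where the adjusted p was below 0.05. KLF2 and S1PR1 keep their called differences when any 1 array is left out, the KLF2 points stay on the same side of 0 in every row, and the calls are lost with the deposited matrix.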

How the data were processed

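Per the file headers, Agilent Feature Extraction 10.7.1.1 (9.1 in the submitters' processing notes) made the deposited intensity values, with background subtracted per spot and no scaling between arrays. A second deposited file holds a matrix of log2 values, described as VSN-normalized, with scale and centring not stated. It served only as an alternative, because the control replicate 2 column correlated at most 0.734 with any array and the control replicate 1 and shGATA3 replicate 1 columns followed the other array of their group. The shGATA3 replicate 2 column also correlated most with shGATA3 replicate 1, though at 0.99 with both arrays of its group. For the comparisons, outlier spots were dropped, which removed 71 probes, spots of a probe were averaged, and 57105 probes were normalized with a rewritten VSN model in R 4.3.3 (trimming quantile 0.9, 7 iterations, 5 strata).

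A probe was tested where some group had it well above background on both of its arrays (31134 probes), and a gene was represented by its brightest tested probe. limma 3.58.1 (lmFit, eBayes, two-sided, 1 fit over 6 arrays with group as the term) gave p values, adjusted by Benjamini-Hochberg over all tested probes and called below 0.05. With 2 arrays against 2 an exact permutation test cannot go below a p of 0.333, so calls rest on the spread pooled over probes (3 residual and 2.968 prior degrees of freedom), and the number of arrays limits the precision. Symbols came from a RefSeq table of GRCh38.p14 by accession (25729 probes named), while the scanner files name hg19. The script was tested on simulated data. The members and gene lists were chosen with earlier results of these data known. Named were every member, the targeted genes, up to 4 called genes per list and comparison by size of difference, and the 5 profiles most like KLF2 and S1PR1. Other normalizations, filters, variance models and sets of arrays were tried as alternatives.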

Additional observations from a re-analysis of the deposited data

How the results depend on the processing

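Over 17 alternatives, 419 of 456 gene values kept their direction and side of the threshold, 18 lost a call, 5 gained one and 14 changed sign. KLF2 kept its call in every comparison under every alternative run on the scanner files (adjusted p up to 0.0299, 0.0267 and 0.00997), and S1PR1 did so in shTCF1 against control (up to 0.0295) and between the hairpin groups (up to 0.043), except that it was not tested under the filter on all arrays, which keeps probes well above background on each of them.

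With the deposited matrix limma called 0 members, 0 listed genes and 0 probes in each comparison (1814, 2652 and 1642 probes at an unadjusted p below 0.05). Leaving out its control replicate 2 column, an alternative chosen after seeing the data, gave 0 members, listed genes and probes against control (4566 and 6518 probes unadjusted) and 6 listed genes and 553 probes between the hairpin groups. For shGATA3 against control 2 members were called under 75th percentile scaling, normexp, the filter on all arrays and the intensity trend. Listed genes fell to 3 without a filter and 8 with the replicate block, and probes numbered 4280 with normexp, 3912 with the trend, 560 without a filter and 1328 with the block, against 2130. For shTCF1 against control 7 listed genes were called without a filter and 10 with the block, and 2272 probes without a filter against 5274. Between the hairpin groups 1 member was called under the filter on all arrays, listed genes numbered 20 with normexp, 19 with the trend and 6 without a filter, and probes 3281, 3273 and 901, with 1214 when only the 4 arrays compared were fitted, against 1925. The cause was not tested, apart from the number of probes tested under the filters.

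Leaving out 1 array gave 1 to 1, 2 to 3 and 2 to 2 members, 2 to 12, 0 to 14 and 6 to 9 listed genes, and 437 to 1454, 865 to 4930 and 701 to 1214 probes, with the lowest counts against control without control replicate 1. Sign changes were all in differences that were not called. CXCR4 in shGATA3 against control was -0.10 with quantile normalization, -0.13 with normexp, -0.01 without shGATA3 replicate 1 (-0.01 to 0.03 with 1 array left out) and -0.05 with the matrix short of the column. CCR7 there was -0.18 without control replicate 2, -0.32 without shGATA3 replicate 1 (-0.32 to 0.41) and -0.03 with the matrix short of the column. With the deposited matrix CXCR3 was -0.50 and S1PR1 0.20 there, and CXCR4 0.68, CCR7 0.16 and CXCR3 -0.32 in shTCF1 against control. GATA3 was 0.00 with 75th percentile scaling, and GPR183 0.04 in shTCF1 against control without shTCF1 replicate 2 (-0.30 to 0.04). Among called probes the share with a higher value was 42.1% and 42.6% against control as reported, 53.6% and 54.8% with 75th percentile scaling and 53.0% and 53.3% with quantile normalization.

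Same-numbered arrays showed no strong shared deviation, with correlations of -0.04, -0.01 and 0.05. This cannot show whether the replicate numbers paired the samples. With the replicate block 1, 3 and 2 members were called, as without it. Fewer probes were called with the block (1328, 3853 and 1285, against 2130, 5274 and 1925). The scanner columns analysed here give the median and not the mean signal of a spot, so normexp on the mean signal could not be run, and slide as a block was not run because 1 slide held all 6 arrays. CCR7, GPR183, CCR4 and S1PR1 on the arrays labelled shTCF1 lay near background, which limits what their probes can show.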
